A study of Rattus norvegicus with 24 samples.

Results

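The genes described are those of the sarcomere and contractile protein families in the hearts of 24 male Wistar Kyoto rats. A gene was a member when a probe set with 1 gene symbol carried a symbol beginning with Tnn, Tpm, Myl, Myh, Mybp, Myom, Myoz, Actn, Actc, Ldb3, Pdlim, Tcap, Csrp3, Des, Ttn, Neb, Casq, Lmod or Tmod, and Myl7, Myl4, Myh6, Myh7, Myh11 and Casq2 were left out by the rule. This gave 67 genes of the 10411 genes that the arrays named by 1 symbol, each read from its brightest probe set. By role, 21 are isoforms of the cardiac sarcomere, 22 are isoforms best known from skeletal muscle, and 19 were grouped as smooth muscle or non-muscle isoforms. This last group also holds Mybphl, which is an atrial marker in the lists used below. The other 5 share only the letters of their symbol (Tpmt, Tnn, Tnni3k, Mylip and Desi2). Cardiac actin, Actc1, has no probe set of its own: the 3 probe sets that carry its symbol also carry Acta2, the smooth muscle actin.

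Expression was read in left ventricle with septum on Affymetrix arrays. There were 6 exposure groups of 4 rats, each rat with an array of its own. The rats were 12–14 weeks of age when obtained, before the exposures, and everything was instilled into the trachea under halothane anesthesia in saline, 1 time per week at 1 mL/kg. The control group received saline. The second group received Mount St. Helens ash (MSH), a particle with no soluble zinc. The PM-HD and PM-LD groups received a suspension of combustion particles with their soluble metals, labelled as 14.5 μg of zinc and 3.0 μg of nickel per mg for PM-HD, and as 7.25 μg of zinc and 1.5 μg of nickel per mg for PM-LD. The study describes the same oil combustion particle sample for both, at a high dose in PM-HD and a low dose in PM-LD. PM-L was the soluble fraction of this material without the particles, and the sixth group received zinc sulfate, given as 14.5 μg/mL in its label and as 33.4 μg zinc per mL in the labels' protocol. The study's design lists a weekly zinc dose for 8 weeks of exposure that is higher than this concentration gives at 1 mL/kg. The saline, MSH, PM-HD and zinc sulfate arrays came from 8 weeks of exposure, 48 hr after the last instillation. For the PM-LD and PM-L arrays no source used here gives the weeks. Every contrast with saline used the same 4 saline rats, so the contrasts are not independent of one another. In its title, the array of saline replicate 1 carries a number outside the run of the other arrays, and a suffix. What this marks was not examined.

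The sarcomere is the contractile unit of striated muscle. Myosin of the thick filament pulls on the actin of the thin filament when calcium binds troponin, a complex of a calcium-binding subunit (troponin C), an inhibitory subunit (troponin I) and a subunit that binds tropomyosin (troponin T). Titin spans each sarcomere from the Z-disc, where α-actinin anchors the thin filaments, to the M-band, where myomesin links the thick filaments, and desmin filaments tie neighbouring Z-discs together. Most of these proteins exist as cardiac, fast skeletal and slow skeletal isoforms from separate genes. The adult ventricle is known for the cardiac forms, and some skeletal forms are made in the fetal heart.

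Upstream sequences are shown for 3 members that recur below: Des, whose signal spread most between rats among the cardiac genes, and a pair of troponin T genes, the slow skeletal Tnnt1 and the cardiac Tnnt2. Each is the 250 bases before the annotated start of RefSeq assembly GRCr8, written 5′ to 3′, with every E-box (CANNTG, the core bound by myogenic and other helix-loop-helix factors) in capitals.
Des, chr9:84299376-84299625, plus strand: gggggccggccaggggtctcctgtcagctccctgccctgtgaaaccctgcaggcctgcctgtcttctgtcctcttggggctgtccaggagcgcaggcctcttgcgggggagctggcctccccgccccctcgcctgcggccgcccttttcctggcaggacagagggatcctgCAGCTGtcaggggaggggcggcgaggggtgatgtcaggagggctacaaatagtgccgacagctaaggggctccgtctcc
Tnnt1, chr1:78348785-78349034, plus strand: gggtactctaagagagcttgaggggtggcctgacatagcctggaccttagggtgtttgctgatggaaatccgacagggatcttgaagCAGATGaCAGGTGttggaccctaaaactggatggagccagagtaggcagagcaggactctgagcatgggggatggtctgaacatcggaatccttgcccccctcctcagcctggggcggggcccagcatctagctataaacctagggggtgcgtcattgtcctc
Tnnt2, chr13:49818873-49819122, plus strand: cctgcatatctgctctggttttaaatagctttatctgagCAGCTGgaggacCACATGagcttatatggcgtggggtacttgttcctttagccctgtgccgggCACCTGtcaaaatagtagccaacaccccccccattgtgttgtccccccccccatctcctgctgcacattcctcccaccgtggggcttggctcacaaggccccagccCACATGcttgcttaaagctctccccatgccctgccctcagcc
The Tnnt2 window held 4 E-boxes, the Tnnt1 window 2 and the Des window 1. A window was found for 52 of the 67 members. E-boxes, which were searched on both strands, lay in 12 of 15 cardiac windows and 14 of 18 skeletal ones, against 7 of 14 smooth muscle and non-muscle windows and 65.2% of 27457 genes of the table. Matches to the MEF2 consensus, the site of a muscle transcription factor family, lay in 3 of 15 cardiac, 3 of 18 skeletal and 0 of 14 smooth muscle and non-muscle windows, against 3.07% of all genes. The CArG box of serum response factor was in 2 of 15 cardiac and 1 of 18 skeletal windows, against 1.5%, and the M-CAT core CATTCC in 4 of 15 and 3 of 18, against 11.8%, again on both strands. The letters TATAAA, searched on the strand of the gene, lay in 6 of 18 skeletal and 0 of 15 cardiac windows, against 8.38% of all genes. These are matches of letters and were not measured as bound sites.

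The cardiac forms of the sarcomere were the bright ones. Signals are in the arbitrary units of the deposited table, and since probe sets differ in efficiency they do not rank transcripts. All 21 cardiac genes lay above 242, the median of the mean signals of all 15866 probe sets tested, with means over the 24 rats from 265 for Lmod3, a leiomodin that nucleates actin filaments, to 32826 for Myl2, the regulatory light chain of the ventricle. Troponin gave means of 32801 for Tnni3, 30680 for Tnnt2 and 22396 for Tnnc1. In the thick filament, the essential light chain Myl3 had a mean of 24609 and the myosin-binding protein Mybpc3 one of 19592. Titin, Ttn, had a mean of 17669, tropomyosin 1, Tpm1, one of 23036 and the M-band protein Myom2 one of 21520. Of 13 ventricular cardiomyocyte markers, among them Myh6 and Casq2, which the rule left out of the families, 12 were above the median. So were 6 of 6 endothelial, 7 of 9 smooth muscle and 7 of 9 fibroblast markers, of cells that such bulk tissue also holds. Of leukocyte markers 2 of 8 were above it, and of adipocyte markers 0 of 3. The means of 6 of 7 atrial markers were also above it, though rats differed widely. Sln, 1 of them, ran from 14.5 in saline replicate 3 to 5068 in PM-L replicate 2. The atrial markers include Myl7, Myl4 and the member Mybphl, and the smooth muscle markers include Myh11 and the member Des.

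Of the 22 skeletal isoforms, 17 lay below the median, as the plot of the mean signals shows. The fast skeletal troponins had mean signals of 95.4 for Tnni2, 78.0 for Tnnt3 and 49.5 for Tnnc2, and the slow skeletal ones 285 for Tnni1 and 21.5 for Tnnt1. Among the myosin heavy chains, means were 84.2 for Myh2, 20.9 for Myh4, 29.2 for Myh8, 16.4 for Myh13 and 13.2 for the embryonic Myh3. The fast light chains had means of 188 for Myl1 and 78.4 for Myl11, and the light chain kinase Mylk2 had one of 223. The skeletal myosin-binding proteins had means of 215 for Mybpc2, 20.4 for Mybph and 13.3 for Mybpc1. Fast α-actinin, Actn3, was at 58.7 and nebulin, Neb, which spans the skeletal thin filament, at 40.9. Above the median lay Tmod4, a thin filament capping protein, at 693, the calcium store protein Casq1 at 663, the Z-disc protein Myoz1 at 281, Tnni1 and Myh1.

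**Figure D1:**
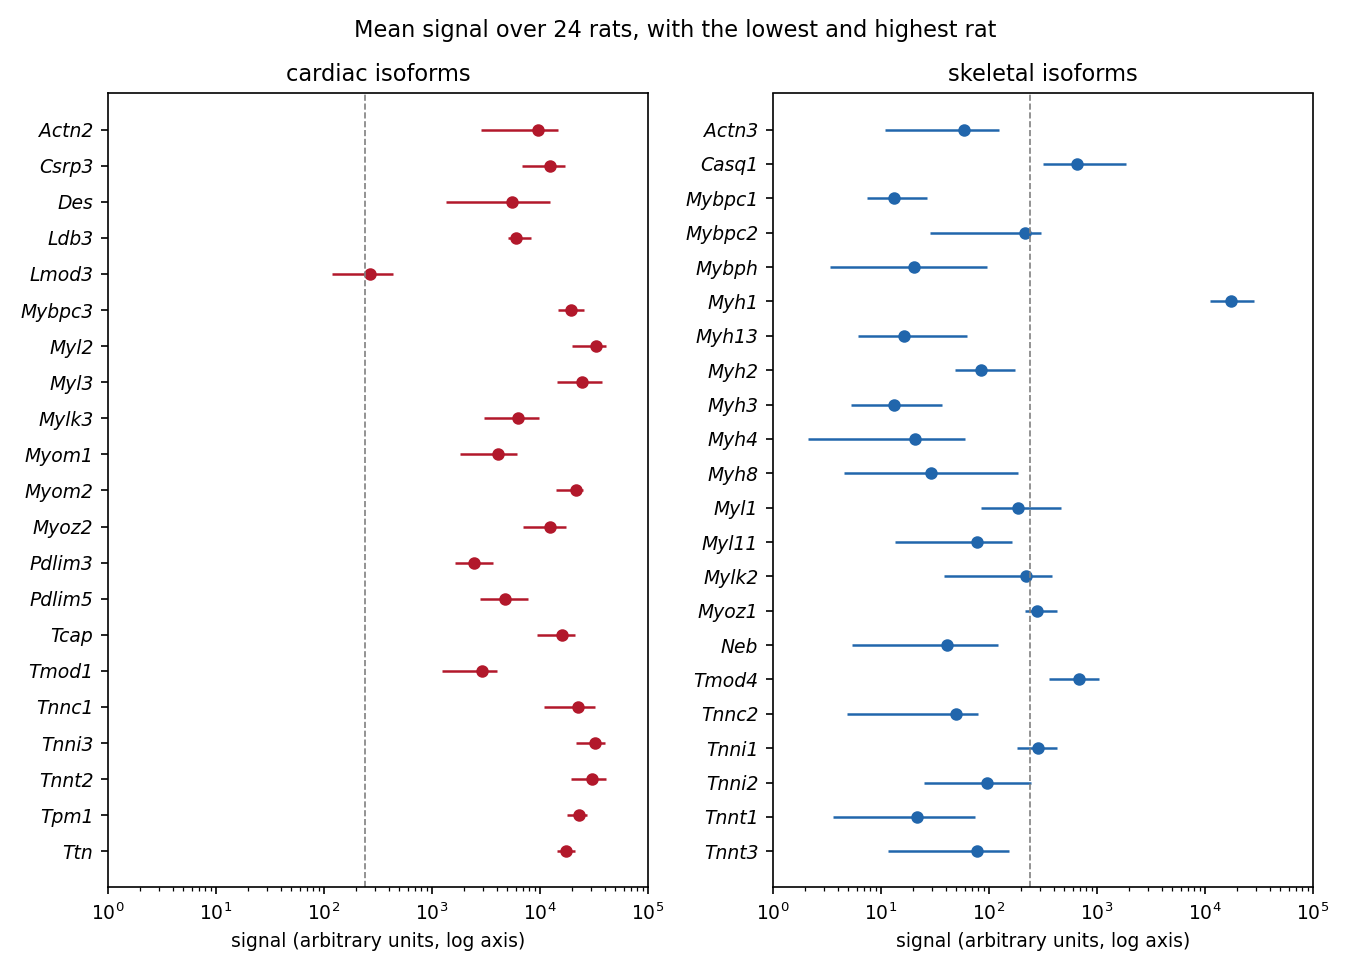
Mean signal over the 24 rats (points) with the lowest and highest rat (lines) for the 21 cardiac and the 22 skeletal isoforms, in alphabetical order on a log axis; the dashed line is the median of the mean signals of all probe sets, 242. All cardiac means lie right of the line, and 17 of the 22 skeletal means lie left of it.

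Myh1, the fast skeletal heavy chain IIx, stood apart from the other skeletal isoforms with a mean of 17618. Its 5 probe sets did not give 1 picture: 3 others had means of 12206, 11753 and 9436, and the last one 629. A probe set that carries the symbols Myh2, Myh1 and Myh8 together had a mean of 74.5. The cardiac heavy chains Myh6 and Myh7 were outside the rule, and reads of near-identical heavy chain sequence by the bright Myh1 probe sets cannot be told apart from Myh1 itself in these data. The brightest Myh1 probe set did not pass the thresholds in any contrast with saline, with log2 differences from -0.12 in PM-LD–exposed rats to 0.17 in MSH-exposed rats. The dim one, at 629, was higher than in saline rats in 4 of 5 exposures, by 1.16 (SE 0.38, p = 0.00863) with MSH, 1.09 (SE 0.38, p = 0.0125) with PM-HD, 0.90 (SE 0.40, p = 0.0341) with PM-L and 0.87 (SE 0.38, p = 0.0380) with zinc sulfate on the log2 scale, each with an exact permutation p of 0.0286. Its 4 saline rats gave 141 to 511, below every rat of these 4 groups, and saline replicate 4 was the lowest at 141. The Myh1 probe set at 12206 was higher with MSH (0.59, SE 0.24, p = 0.0258, exact p = 0.0286). None of these had an adjusted p below 0.05 in limma (lowest 0.99988, 0.99909, 0.99902 and 0.9986 in the 4 exposures).

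Against saline, few members differed in any exposure. A member was called at the study's thresholds, an unadjusted p below 0.05 in limma with a level over 25% above or below saline, and the share of all 15866 probe sets called in the same way is given beside each count. A second, exact permutation test of 4 against 4 rats, given as exact p, cannot go below 0.0286. MSH changed 2 of 67 members (2.99%, against 3.57% of all probe sets), 1 higher and 1 lower (1.83% and 1.75% of all probe sets). PM-HD changed 3 (4.48% against 3.67%), all higher (2.04% of all probe sets were higher and 1.63% lower). PM-LD changed 3 (4.48% against 4.11%), 2 higher and 1 lower (2.24% and 1.87% of all probe sets). PM-L changed 3 (4.48% against 4.25%), 2 higher and 1 lower (2.43% and 1.82%). Zinc sulfate changed 5 (7.46% against 4.46%), 3 higher and 2 lower (2.41% and 2.05%). Between zinc sulfate and MSH 0 members were called, where 6.66% of all probe sets were (3.66% higher and 2.99% lower), and 0 had an unadjusted p below 0.05, where 7.27% of all probe sets did. This 0 became 15 without zinc sulfate replicate 3 (below). Over the 6 groups at once, 5 of 67 members had an F test p below 0.05 (5.01% of all probe sets did). The signals of the compared groups did not overlap for 3 of 67 members with MSH (3.07% of all probe sets), 2 with PM-HD (1.85%), 4 with PM-LD (2%), 1 with PM-L (1.9%), 3 with zinc sulfate (2.58%) and 1 in zinc sulfate against MSH (5.55%). No member passed after Benjamini-Hochberg adjustment over all probe sets in any contrast (0% of all probe sets, and 0.0126% with PM-L), where the lowest adjusted p of a member was 0.659 against saline, 0.718 between zinc sulfate and MSH and 0.644 in the F test. Against saline, the shares called were near the background of the arrays, with zinc sulfate furthest above it (7.46% against 4.46%). Between zinc sulfate and MSH the share called was below the background. With PM-LD the share without overlap was above it.

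**Figure D2:**
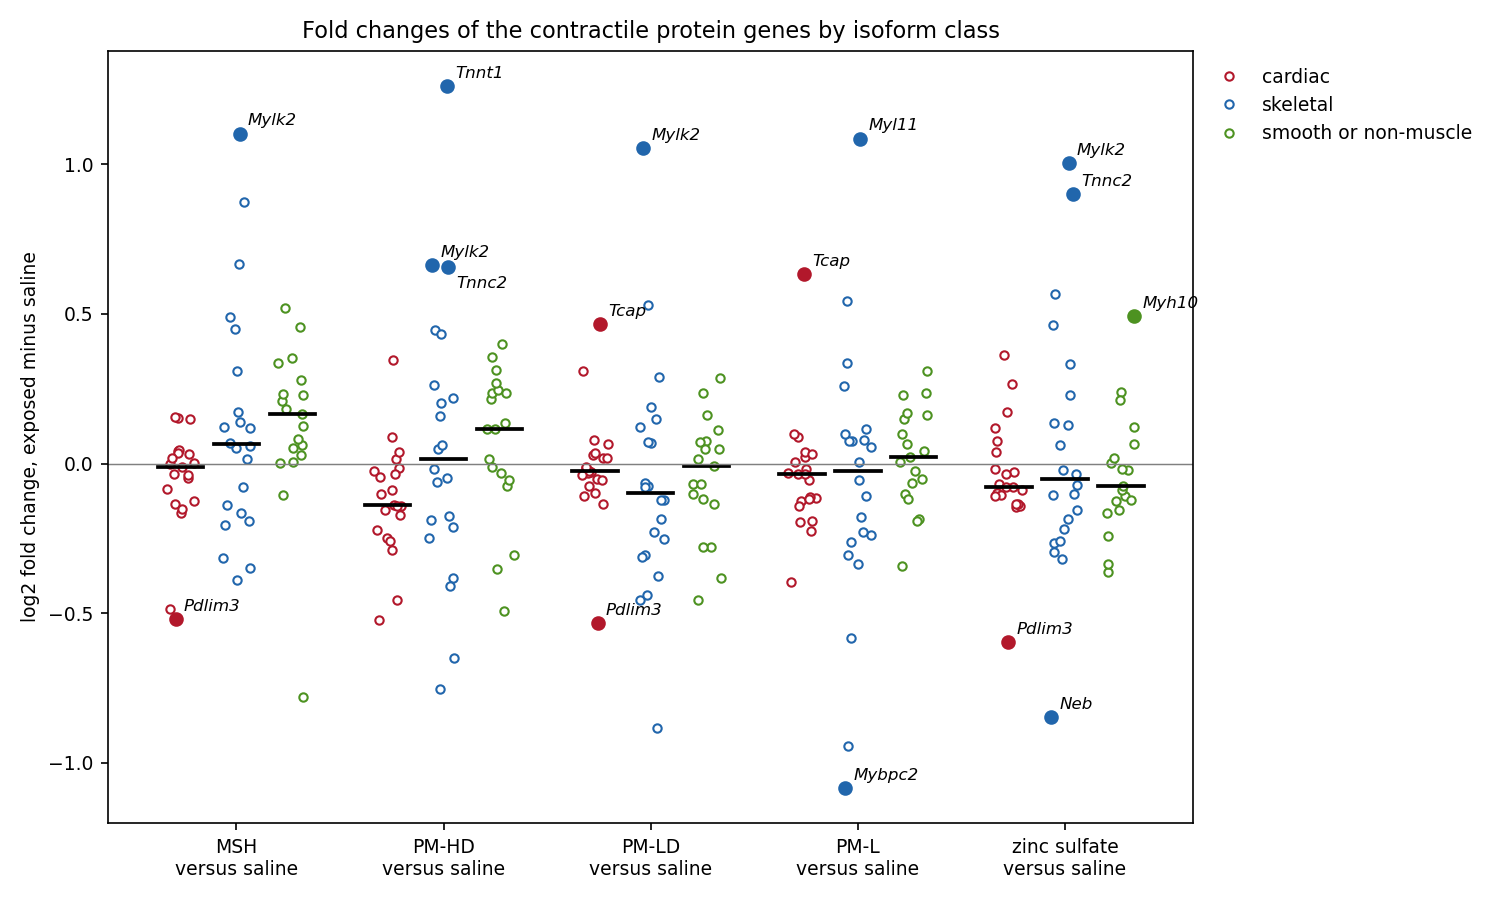
Log2 fold change against saline (vertical axis) of each cardiac (red), skeletal (blue) and smooth muscle or non-muscle (green) isoform in 5 exposures; filled, named points passed the thresholds and black lines are class medians. Of the cardiac points, those of Tcap, Pdlim3, Des and Lmod3 reach furthest from 0 (Lmod3 at -0.52 with PM-HD), and Tcap and Pdlim3 alone among them are filled.

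Set side by side, skeletal and cardiac isoforms had class medians near 0. The median log2 fold change of the 21 cardiac isoforms was -0.01 with MSH, -0.14 with PM-HD, -0.03 with PM-LD, -0.03 with PM-L and -0.08 with zinc sulfate. Of the 22 skeletal isoforms it was 0.06, 0.02, -0.10, -0.02 and -0.05 in the same order, and over all probe sets it lay between -0.01 and 0.00. The skeletal median minus the cardiac one was 0.08 with MSH, 0.15 with PM-HD, -0.07 with PM-LD, 0.01 with PM-L and 0.03 with zinc sulfate. With each array centred on its median in place of quantile normalization, the cardiac median changed sign with zinc sulfate (0.23) and with PM-LD (0.05). Within groups, the median SD of the log2 values was 0.29 for the cardiac and 0.57 for the skeletal isoforms, against 0.39 for all probe sets. These class medians are a description and were not tested. Single arrays moved them: the cardiac median was 0.14 with zinc sulfate without zinc sulfate replicate 3, 0.11 with PM-LD without PM-LD replicate 3, and -0.02 with PM-HD without PM-HD replicate 4, and with the Gapdh ratio (below) as a covariate it was -0.03 with PM-HD.

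In the cardiac sarcomere, Tcap and Pdlim3, both of the Z-disc, were called. Tcap encodes telethonin, which caps titin at the Z-disc. Its signal in saline rats was 12765, 15310, 11744 and 9496. In PM-L–exposed rats it was 20431, 17005, 21187 and 18043, so that every PM-L rat was above every saline rat. The log2 difference was 0.63 (SE 0.16, p = 8.69e-04, adjusted p = 0.707 in limma; exact permutation p = 0.0286, the smallest that 4 against 4 rats allow). PM-LD–exposed rats gave 18366, 15575, 17634 and 15363, again above all saline rats, though the lowest by a small margin (0.46, SE 0.16, p = 0.00961, exact p = 0.0571, adjusted p = 0.999). Zinc sulfate–exposed rats gave 20299, 19665, 15239 and 18587 (0.36, SE 0.17, p = 0.0522, exact p = 0.0571), and 3 of the 4 were above the highest saline rat. PM-HD rats ran from 13707 to 18496 (0.35, SE 0.17, exact p = 0.143) and MSH rats from 11917 to 17123 (0.16, SE 0.17, exact p = 0.429), and both overlapped saline. In a fit over all 24 arrays, PM-HD and zinc sulfate passed the thresholds as well. The group means on the log2 scale were above the saline mean in all 5 exposures, of which PM-LD and PM-L were called, and the F test over the 6 groups passed before adjustment (adjusted p = 0.881). Saline replicate 4, the lowest, was also the saline array with a high Gapdh ratio (below), and without the arrays of high Gapdh ratio the PM-LD call was lost while the PM-L call was kept.

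Pdlim3 encodes an α-actinin-associated LIM protein of the Z-disc. Its signal in saline rats was 2835, 2762, 3295 and 3719. In MSH-exposed rats it was 2421, 2335, 1655 and 2358, all below the saline rats (log2 difference -0.52, SE 0.23, p = 0.0368, exact p = 0.0286, adjusted p = 0.99988). In PM-LD–exposed rats it was 2150, 2439, 2145 and 2121, also all below saline (-0.53, SE 0.23, p = 0.0289, exact p = 0.0286). In zinc sulfate–exposed rats it was 1836, 1993, 2793 and 1991 (-0.60, SE 0.23, p = 0.0191, exact p = 0.0857), and zinc sulfate replicate 3 reached into the saline range. PM-L (-0.40, exact p = 0.171) and PM-HD (-0.26, exact p = 0.314) were not called, and their rats overlapped saline. The MSH call was lost without saline replicate 3, saline replicate 4 or MSH replicate 3, the PM-LD call without saline replicate 3, saline replicate 4 or PM-LD replicate 4, and the zinc sulfate call without saline replicate 4 or zinc sulfate replicate 1. Its signal was higher in the arrays of high Gapdh ratio, opposite to most cardiac genes, in all 6 groups.

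**Figure D3:**
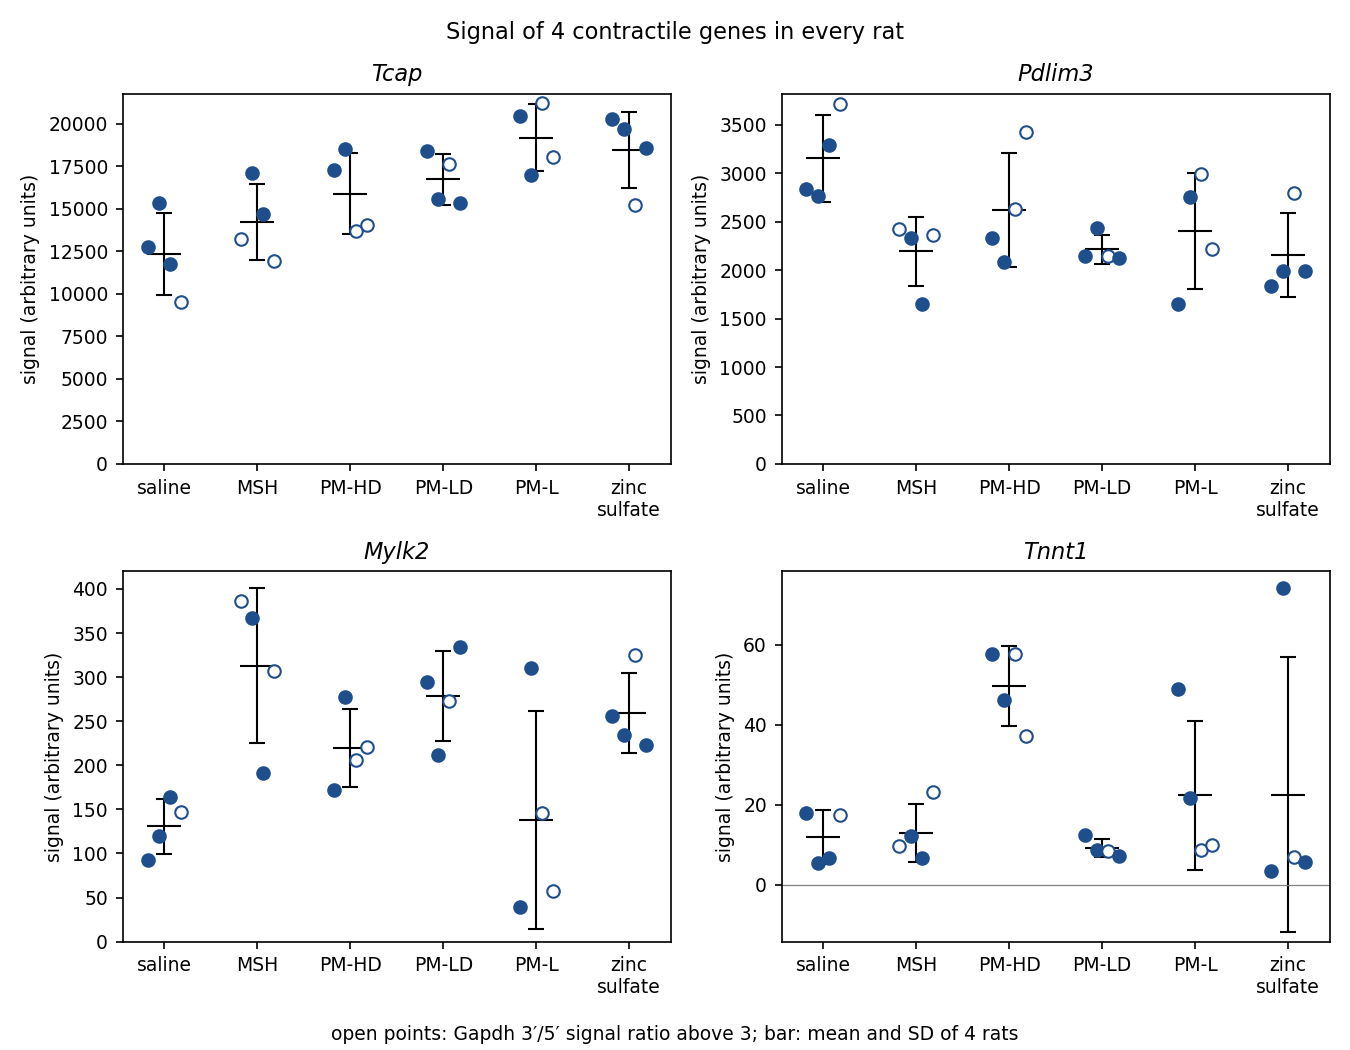
Signal of Tcap, Pdlim3, Mylk2 and Tnnt1 (vertical axes, arbitrary units) in each of 4 rats of 6 groups (points; open, arrays with a Gapdh 3′/5′ ratio above 3), with mean and SD (bars, which reach below 0 for Tnnt1 with zinc sulfate). All PM-L rats lie above all saline rats for Tcap, and all MSH, PM-HD, PM-LD and zinc sulfate rats lie above all saline rats for Mylk2.

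The other 19 cardiac isoforms were not called in any contrast. The troponins Tnnt2, Tnni3 and Tnnc1 differed from saline by between -0.14 and 0.08 on the log2 scale in all 5 exposures. Ttn differed by -0.13 to 0.04, Tpm1 by -0.12 to -0.04, Myl2 by -0.07 to 0.15, Myl3 by -0.14 to 0.04 and Mybpc3 by -0.08 to 0.15. A second, dimmer Myl2 probe set, with a mean of 1760, disagreed with the bright one: it was called lower with PM-LD (-0.68, SE 0.33, p = 0.0480, exact p = 0.114) and was at -0.59 with zinc sulfate. In the Z-disc, the LIM proteins Csrp3 (-0.14 to 0.01) and Ldb3 (-0.12 to 0.02) and the calsarcin Myoz2 (-0.16 to -0.05) likewise stayed near the saline mean. These ranges are of the brightest probe set of each gene. Dimmer ones of Ldb3, Tpm1 and Tnnt2 were not called against saline, but some moved further. With MSH an Ldb3 probe set at 5598 was at -0.36 and another, at 3200, at 0.36. A Tpm1 probe set at 313 ran from -0.74 with PM-LD to 0.58 with PM-HD, while one at 19184 stayed between 0.01 and 0.14. A Tnnt2 probe set at 135 was at -0.415 with PM-HD and 0.37 with PM-LD. The M-band proteins gave -0.11 to 0.09 for Myom2 and -0.25 to -0.08 for Myom1, whose spread within groups was wider. For Tnni3 the 4 zinc sulfate rats had signals of 36460, 36131, 36933 and 40005, all above the saline rats at 21541, 31595, 32925 and 29676, but after quantile normalization the difference was 0.04 (SE 0.12, exact p = 0.714). Mybpc3 behaved alike, with zinc sulfate rats from 20606 to 25386 and saline rats from 14766 to 20378, and a normalized difference of -0.03 (SE 0.12, exact p = 0.686). Under median centering Tnni3 (0.48), Tnnt2 (0.47), Mybpc3 (0.34) and Tcap (0.68) were called with zinc sulfate, so for the brightest genes the call depended on how the arrays were scaled.

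The probe sets shared by Acta2 and Actc1, the closest reading of cardiac actin here, had mean signals of 27732, 15442 and 11209. They were not called in any contrast. The brightest differed from saline by 0.00 in PM-LD–exposed rats and by -0.25 (SE 0.26, exact p = 0.229) in PM-HD–exposed rats, its extremes.

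Desmin, α-actinin 2 and several other cardiac genes varied widely between rats of one group. Des gave 8212, 7376, 3989 and 1826 in saline rats, 2968, 3533, 4159 and 2514 in MSH rats, and 4376, 9517, 2152 and 1407 in PM-HD rats. PM-LD rats gave 5668, 11048, 1734 and 9971, PM-L rats 5296, 11072, 1815 and 2412, and zinc sulfate rats 7879, 10119, 1367 and 12455. The groups overlapped throughout, and no contrast of Des with saline passed, with log2 differences from -0.49 (MSH, exact p = 0.371) to 0.31 (PM-LD, exact p = 0.657).

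This spread moved with the Gapdh 3′/5′ ratio, the signal of the control probe set at the 3′ end of Gapdh over that at its 5′ end. It is commonly read as RNA integrity and rises when transcripts are shortened at their 5′ end. The study reported a ratio of the ribosomal RNAs at or above a stated minimum for all its samples. What raised the Gapdh ratio was not tested. The Gapdh ratio was above 3 on 9 of the 24 arrays: 2 each of MSH, PM-HD and PM-L, and 1 each of zinc sulfate, PM-LD and saline. On these 9 arrays Des ran from 1367 to 2968 and on the 15 others from 3533 to 12455. Actn2, which cross-links actin at the Z-disc, ran from 2840 to 8166 on the 9 and from 9063 to 14895 on the 15. The M-band gene Myom1 ran from 1819 to 3499 against 4055 to 6108, and the cardiac light chain kinase Mylk3 from 3068 to 5165 against 6335 to 9911. The kinase Tnni3k, from the genes that share only letters with the families, ran from 302 to 1018 against 1255 to 2843. For these 5 of 67 members (7.46%) all 9 arrays lay below all 15 others, which held for 1.62% of all probe sets. No member had all 9 above (0.668% of all probe sets).

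**Figure D4:**
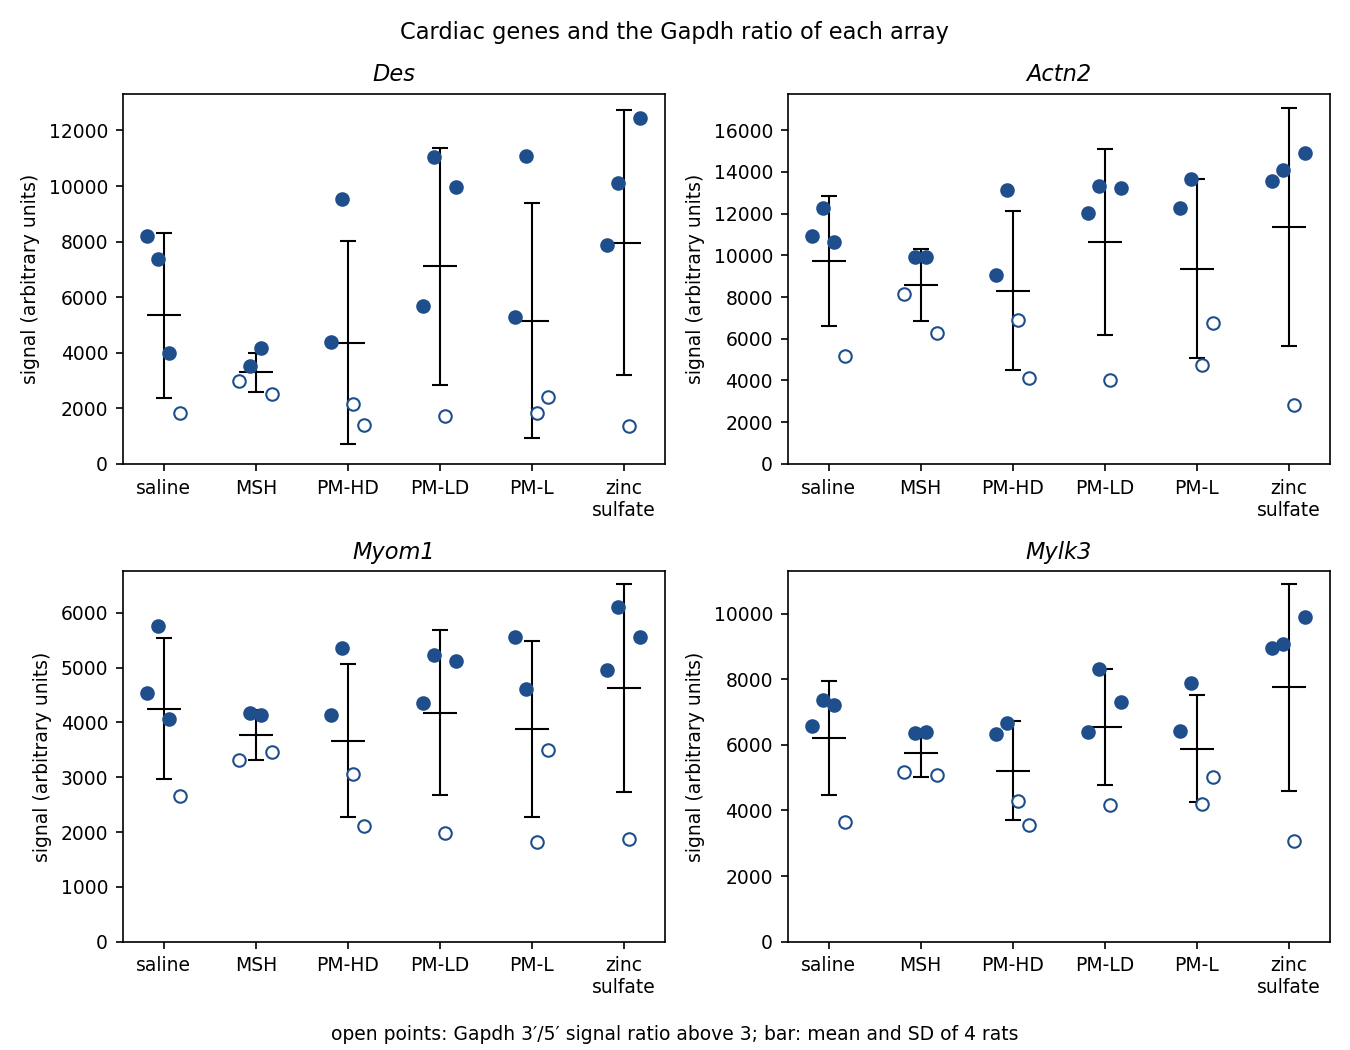
Signal of Des, Actn2, Myom1 and Mylk3 (vertical axes, arbitrary units) in each of 4 rats of 6 groups, with mean and SD (bars). Open points, the 9 arrays with a Gapdh 3′/5′ ratio above 3, lie below all filled points, for Des from 1367 to 2968 against 3533 to 12455.

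The isoform classes followed the ratio in opposite directions. For each rat the class median was taken of its log2 differences from the saline mean. For the cardiac isoforms it was between -0.53 and -0.07 on the 9 arrays of high ratio and between -0.01 and 0.14 on the 15 others, without overlap. For the smooth muscle and non-muscle isoforms it was between 0.14 and 0.53 on the 9 and between -0.39 and 0.18 on the others. For the skeletal isoforms, which are mostly dim, both sets covered the same range, -0.29 to 0.15 and -0.22 to 0.15. Of the 21 cardiac genes 15 were lower on the 9 arrays and 6 were higher, among them Pdlim3, Myom2 and Mybpc3. Each exposure group held arrays of both kinds, and the part of the ratio in the calls above was not tested beyond the fits given with them.

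**Figure D5:**
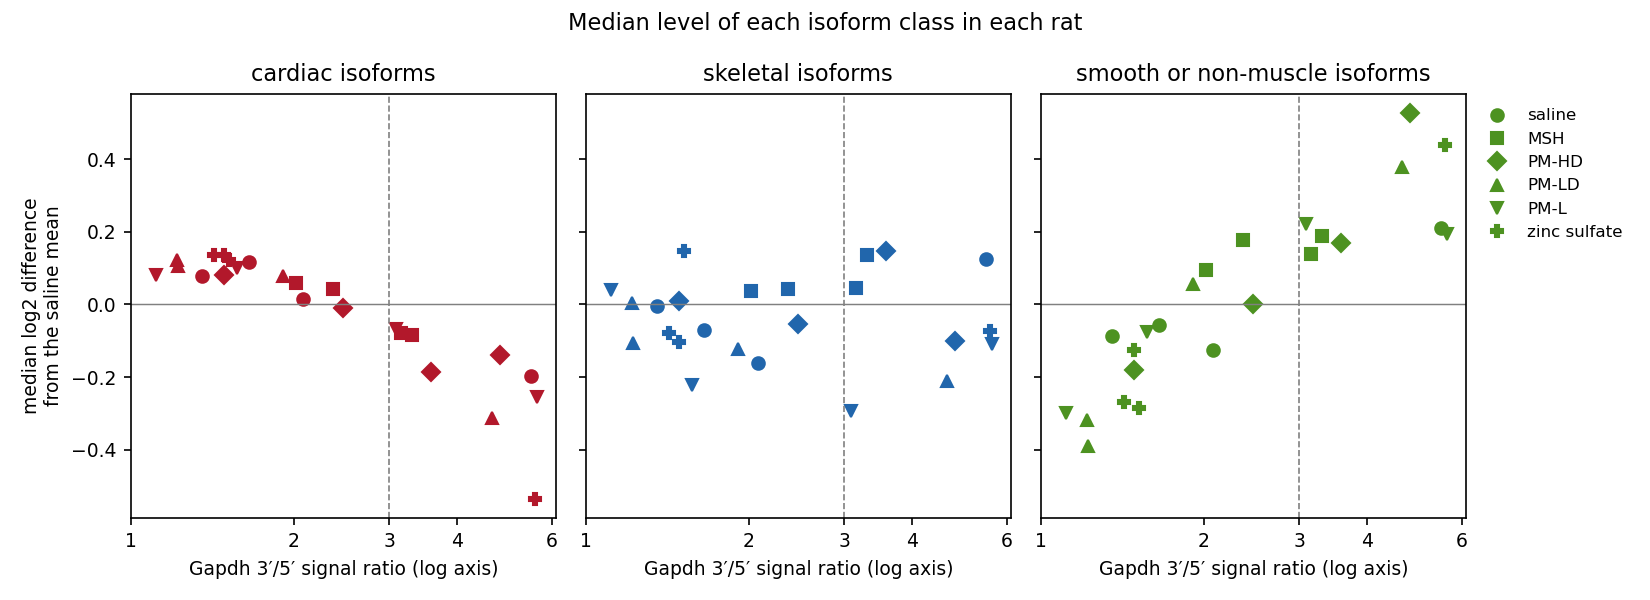
Median log2 difference from the saline mean (vertical axis) of the cardiac, skeletal and smooth or non-muscle isoforms in each of 24 rats against the Gapdh 3′/5′ signal ratio of its array (log axis); symbols are groups and the dashed line is a ratio of 3. Right of the line all 9 cardiac medians are at -0.07 or lower, and all 9 smooth or non-muscle medians at 0.14 or higher.

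Among the skeletal isoforms, Mylk2 was called in 4 exposures. It encodes the myosin light chain kinase of skeletal muscle. Its signal in saline rats was 92.5, 120, 164 and 147, under the median of the array. In MSH-exposed rats it was 387, 367, 192 and 306, and the log2 difference was 1.1 (SE 0.21, p = 8.25e-05, exact p = 0.0286, adjusted p = 0.698). In zinc sulfate–exposed rats it was 256, 235, 325 and 223 (1.00, SE 0.21, p = 2.08e-04, exact p = 0.0286, adjusted p = 0.659). In PM-LD–exposed rats it was 295, 211, 273 and 334 (1.05, SE 0.37, p = 0.00974), and in PM-HD–exposed rats 172.1, 278.0, 205.5 and 220.6 (0.66, SE 0.21, p = 0.00590), with an exact p of 0.0286 in each. Every rat of these 4 groups was above every saline rat. PM-L rats gave 38.9, 310, 146 and 57.9 and spanned the saline range on both sides (-0.30, SE 0.37, exact p = 0.657). Whether PM-L differed from the other exposures was not tested in pairs, and the F test over the 6 groups passed before adjustment (adjusted p = 0.644). A second Mylk2 probe set, with a mean of 54.0, was not called in any contrast (log2 differences from -0.59 to 0.34), and with the mean of both probe sets the PM-HD, PM-LD and zinc sulfate calls were lost. The PM-HD call was also lost in a fit over all 24 arrays, and the PM-LD call without the arrays of high Gapdh ratio.

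Troponin genes of skeletal muscle gave calls at low signal. Tnnt1, slow skeletal troponin T, gave 57.8, 46.1, 57.8 and 37.3 in PM-HD–exposed rats and 18.1, 5.4, 6.8 and 17.6 in saline rats, without overlap (1.26, SE 0.40, p = 0.00688, exact p = 0.0286, adjusted p = 0.999). In the other exposures most rats were under 25, with single rats at 49.0 (PM-L replicate 1) and 74.1 (zinc sulfate replicate 2). Tnnc2, fast skeletal troponin C, gave 36.0, 10.3, 35.5 and 53.1 in saline rats. It gave 79.7, 62.3, 45.5 and 79.5 with zinc sulfate (0.90, SE 0.29, p = 0.00794, exact p = 0.0571) and 72.7, 74.0, 37.5 and 49.6 with PM-HD (0.66, SE 0.29, p = 0.0413, exact p = 0.114), and both groups overlapped saline. The PM-HD call of Tnnc2 was lost without saline replicate 2, saline replicate 3, PM-HD replicate 1 or PM-HD replicate 2, with an offset of 64, under median centering and in a fit over all 24 arrays. Cardiac troponin T, Tnnt2, over the same rats differed by -0.09 with PM-HD.

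The remaining skeletal calls each rested on few rats. Mybpc2, the fast myosin-binding protein C, was lower with PM-L (-1.08, SE 0.38, p = 0.00948, exact p = 0.114), where rats gave 170, 236, 103 and 28.7 against 225 to 273 in saline, and without PM-L replicate 4 the call was lost (-0.57), as it was without the arrays of high Gapdh ratio. Myl11, the fast regulatory light chain, was higher with PM-L (1.09, SE 0.46, p = 0.0290, exact p = 0.0857), with 85.2, 163, 97.1 and 136 against 89.9, 56.9, 35.5 and 18.9 in saline, and the call was lost without saline replicate 3, saline replicate 4, PM-L replicate 2 or PM-L replicate 4, and without the arrays of high Gapdh ratio. Neb was lower with zinc sulfate (-0.85, SE 0.37, p = 0.0373, exact p = 0.143), with 21.6, 6.4, 77.7 and 14 against 35.6 to 123 in saline, and the call was lost when saline replicate 3 or 4 or zinc sulfate replicate 1, 2 or 4 was left out. It was also lost with the replicate block, with an offset of 64 and in a fit over all 24 arrays. All 3 groups overlapped saline. Mybpc1 was lower with PM-LD (-0.37, p = 0.0201, exact permutation p = 0.0286) but its fold, 0.772, missed the threshold.

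Skeletal muscle markers outside the families bore on whether skeletal tissue was present in the samples. Of 18 measured, 4 lay above the median: Acta1, Pgam2, Eno3 and Chrna1. Heart muscle also makes the first 3 of these, an actin and a pair of glycolytic enzymes, which held between 93.5% and 95.9% of the summed signal in the groups. The sum of the other 15 markers, a split chosen after the values were seen, was 1243 to 1745 in saline rats, 1252 to 1919 with MSH, 1328 to 1412 with PM-HD, 1104 to 1854 with PM-LD, 1422 to 1756 with PM-L and 1109 to 1660 with zinc sulfate, so every group overlapped saline. Over all 18, the median log2 difference ran from -0.12 with zinc sulfate to -0.02 with PM-LD. With PM-HD 13 of the 18 were below the saline mean (median -0.11), and Acta1 (-0.75) and Sypl2 (-0.97) had all PM-HD rats below all saline rats without passing the thresholds. The fast calcium pump Atp2a1 had a mean of 162 and the skeletal ryanodine receptor Ryr1 one of 47.4. Of the 18, 1 was called with PM-HD (5.56%, against 3.67% of all probe sets) and 2 with PM-LD (11.1% against 4.11%). With MSH, PM-L and zinc sulfate 0 were called (3.57%, 4.25% and 4.46% of all probe sets). With PM-LD 10 of the 18 were below the saline mean. Myod1, a myogenic transcription factor with a mean of 24.2, was called higher with PM-HD (1.21, SE 0.38, p = 0.00638, exact p = 0.0286) and PM-LD (0.88, SE 0.36, p = 0.0233, exact p = 0.0286), without overlap. Parvalbumin, Pvalb, a calcium buffer of fast fibers with a mean of 26.5, was called higher with PM-LD (0.90, SE 0.43, p = 0.0482, exact p = 0.0857). Its PM-LD rats gave 76.8, 71.8, 16.5 and 20.5 against 12.4 to 21.1 in saline, with overlap. In bulk tissue fewer cells of a type and less RNA per cell cannot be told apart.

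Zinc sulfate against MSH depended on 1 array. With all 4 zinc sulfate rats 0 of 67 members were called, and without zinc sulfate replicate 3 the count was 15 of 67 (22.4%, against 14.5% of all probe sets), 5 higher and 10 lower, none with an adjusted p below 0.05. Des was higher with zinc sulfate in that fit (log2 difference 1.42, SE 0.57, adjusted p = 0.265), with zinc sulfate signals of 7879, 10119 and 12455 beside 1367 in replicate 3, and MSH signals of 2514 to 4159. Tpm4, a non-muscle tropomyosin, was lower (-1.05, SE 0.28, adjusted p = 0.179), at 1645, 1413 and 1348 beside 4809 in replicate 3, and 2768 to 3134 in the MSH rats. Among the 15, the non-muscle α-actinins Actn1 (-0.94) and Actn4 (-0.82) and the non-muscle myosin Myh9 (-0.59) were also lower, and the thin filament protein Tmod4 was higher (0.65). The Gapdh ratio was 5.57 in replicate 3 and between 1.42 and 1.52 in the other zinc sulfate arrays, and between 2.02 and 3.31 in the MSH arrays. With that ratio as a covariate and all arrays kept, 1 member was called, Mybpc2 (-0.43, SE 0.19, adjusted p = 0.484), where 7.61% of all probe sets were.

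Of the smooth muscle and non-muscle isoforms, Myh10 was called. It encodes non-muscle myosin heavy chain IIB. Zinc sulfate–exposed rats gave 508, 339, 375 and 540, and saline rats 421, 369, 317 and 216 (0.49, SE 0.23, p = 0.0455, exact p = 0.200), with overlap, and the call was lost in 4 of the 8 fits that left out 1 rat: saline replicate 3 or 4, or zinc sulfate replicate 1 or 4. It was also lost with the replicate block, under median centering and without the arrays of high Gapdh ratio. Pdlim7, a LIM protein of actin filaments, had all MSH rats (843, 731, 727 and 440) below all saline rats (1410, 1237, 902 and 1128) but did not pass (-0.78, SE 0.40, p = 0.0678, exact p = 0.0286). The class median was 0.16 with MSH, 0.12 with PM-HD, -0.01 with PM-LD, 0.02 with PM-L and -0.07 with zinc sulfate. With PM-HD it was 0.01 without PM-HD replicate 4, 0.27 without PM-HD replicate 2 and -0.00 with the Gapdh covariate, and with PM-LD it was -0.22 without PM-LD replicate 3. The MSH and PM-HD groups, where it was highest, each held 2 arrays of high Gapdh ratio, and so did PM-L.

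The members had 36 further probe sets, of which 3 were called with MSH, 1 with PM-HD, 4 with PM-LD, 2 with PM-L, 4 with zinc sulfate and 4 in zinc sulfate against MSH. Of all probe sets 3.57%, 3.67%, 4.11%, 4.25%, 4.46% and 6.66% were called, in the same order. Beside Myh1 (above), the called ones were of Tpm3, Actn1, Pdlim7, Tmod2, Myl2 and Ldb3. A second Actn1 probe set was higher with MSH (0.64), and one of Pdlim7 was lower with PM-LD (-0.61), with zinc sulfate (-0.63) and in zinc sulfate against MSH (-0.57). The capping protein Tmod2 had a dim probe set, at 77.7, that was higher with PM-LD (1.12). A second Ldb3 probe set was lower in zinc sulfate against MSH (-0.60). The slow and non-muscle tropomyosin Tpm3 has 11 probe sets. The brightest, at 1450, was not called. A dim one, at 249, gave 154, 97.3, 133 and 86.6 in saline rats and 339, 276, 574 and 255 in PM-LD–exposed rats (1.51, SE 0.40, p = 0.00114, exact p = 0.0286, adjusted p = 0.783). It was also higher with PM-L (1.17, SE 0.40, p = 0.00821, exact p = 0.0571) and zinc sulfate (1.19, SE 0.40, p = 0.0101, exact p = 0.0286), where all rats were above all saline rats. A dimmer Tpm3 probe set, at 72.7, went the other way with zinc sulfate (-0.89, SE 0.37, p = 0.0315, exact p = 0.0571), and in zinc sulfate against MSH it was lower (-1.02) while a Tpm3 probe set at 428 was higher (0.57). The probe sets of this gene therefore disagreed, and the files do not say which transcript each reads.

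A list of 37 other genes of the sarcomere, the Z-disc and their regulation was also read. It holds genes of the families that the rule left out, such as Myl7. Of the 37, 1 was called against saline, with MSH (2.7%, against 3.57% of all probe sets). It was Mef2d, a muscle transcription factor, which was lower (-0.47, SE 0.20, p = 0.0365, exact p = 0.0571). In the other 4 exposures 0 of the 37 were called by limma (1 had an unadjusted p below 0.05 with zinc sulfate, and 0 in the others). Of all probe sets 3.67% were called with PM-HD, 4.11% with PM-LD, 4.25% with PM-L and 4.46% with zinc sulfate. The median log2 fold change of these 37 lay between -0.15 (PM-HD) and 0.02 (PM-LD). Atrial markers varied between rats of one group: 6 arrays (1 saline, 1 MSH, 1 PM-LD, 2 PM-L and 1 zinc sulfate) had a mean log2 value above 11 over Nppa, Myl7, Myl4 and Sln. The summed signal of all 7 measured atrial markers ran from 4368 to 27187 over the saline rats and from 5775 to 46007 over the PM-L rats. Nppa, the atrial natriuretic peptide, was called higher with PM-L (1.41, SE 0.59, p = 0.0262, exact p = 0.114). Without these 6 arrays the Tcap calls with PM-LD and PM-L were kept, and the calls of Pdlim3 with PM-LD, Tnnc2 with PM-HD, Myl11 with PM-L and Neb with zinc sulfate were lost. With the atrial mean as a covariate the calls of Pdlim3 with MSH, Myl11 with PM-L and Myh10 with zinc sulfate were lost.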

How the data were processed

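The deposited values were signal intensities, not logged, that the authors obtained by Microarray Suite 5.0 (MAS5; no version is stated in the labels) at its default setting. Trimmed means computed here were 500 on every array. The authors tested robust multiarray averages, which this table does not hold. After 57 control probe sets were dropped, 15866 remained. Array medians ran from 206 to 278, and 4.77% to 10.7% of the signals on an array were under 16. The number of arrays limits the precision.

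After 16 was added, signals were logged (log2) and all 24 arrays quantile normalized together. Group means were fitted in limma 3.58.1 (R 4.3.3): contrasts between the saline, MSH, PM-HD and zinc groups used 16 arrays, and PM-LD, PM-L and the F test used 24. Fold changes are differences of mean log2(signal + 16), which understates dim genes, with the moderated SE. Exact permutation tests were two-sided over 70 arrangements of the normalized values. Signals in the text, and statements on overlap, are of the deposited values. Called were p below 0.05 with a change over 25%. Benjamini-Hochberg adjusted p-values cover all tested probe sets. The fit was tested on simulated data.

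Names came from the platform annotation, in which 12783 probe sets had 1 symbol, 312 several and 2771 none. RefSeq held 65 of 67 members by gene ID, and 17 members had several probe sets. Upstream sequences are from RefSeq (GRCr8), at the first listed start of a gene. Members and lists were chosen with earlier results of these data known. Named were members that passed in any contrast or in the F test, every skeletal isoform by its level and the main cardiac isoforms whatever they did. From the list of other sarcomere and Z-disc genes, those that passed against saline were named. The study describes the arrays of a group as biological replicates, which were taken as separate rats. Alternatives were other offsets, median centering, bright probe sets only, 24 arrays in every fit, a replicate block, averaged probe sets, the Gapdh ratio or atrial marker mean as a covariate or an array filter, and leaving out each rat.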

Additional observations from a re-analysis of the deposited data

Results flagged for a closer look

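In 31 of 240 checks of 1 gene in 1 group of 4 rats, over 40 genes, a single rat lay far from the other 3 (Dixon's test at the 95% level). That level holds for normally distributed values, but these signals were not logged, and the same arrays recur over the 40 genes. The count was therefore not set against a rate by chance. PM-LD replicate 3 was low for Actn2 (4001), Csrp3 (7342), Myoz2 (8278) and Tmod4 (485) and high for Myh3 (18.8). Zinc sulfate replicate 3 was low for Actn2 (2840) and Myoz2 (7013) and high for Pdlim3 (2793), Tnni1 (298) and Tnni2 (248). Both are arrays of high Gapdh ratio, and so are PM-HD replicate 4, low for Tnnc1 (12466), PM-HD replicate 3, high for Tnni2 (187), PM-L replicate 3, high for Myh2 (174), Myh8 (186) and Myh13 (63.5), and saline replicate 4, high for Mybph (77.2) and Myh3 (36.7). Zinc sulfate replicate 4 was high for Mybpc3 (25386) and Myl2 (39562), and zinc sulfate replicate 2 for Tnnt1 (74.1). PM-HD replicate 1 was high for Mybph (96.8) and Myh4 (60.1). PM-L replicate 1 was high for Tnnt2 (34226) and low for Tnnc2 (26.6), and PM-L replicate 2 was low for Myom2 (17819) and high for Tnni2 (168). MSH replicate 3 was low for Pdlim3 (1655) and high for Mybph (26.5), and MSH replicate 2 was high for Ldb3 (5910). PM-LD replicate 2 was high for Pdlim3 (2439), and PM-LD replicate 4 for Myoz1 (364).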

How the results depend on the processing

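Counts of called members are given against saline unless stated. Percentages in brackets are the share of everything tested that was called in the same fit. This share was not taken for the F test. Under median centering zinc sulfate called 8 members (4.85%) and zinc sulfate against MSH 3 (7.91%). Mybpc3 with zinc sulfate changed from -0.03 to 0.34 and Myom2 in zinc sulfate against MSH from -0.06 to 0.36 on the log2 scale. The cause was not tested. With bright probe sets only, where fewer genes were tested, 1 member each was called with MSH (2.14%), PM-HD (2.07%), PM-L (2.86%) and in the F test. With zinc sulfate 3 were called (2.81%). With a gene's probe sets averaged, MSH called 6 (3.28%) and zinc sulfate against MSH 1 (6.59%). With the Gapdh ratio as a covariate MSH called 5 (4.65%), PM-HD 6 (4.97%), zinc sulfate against MSH 1 (7.61%) and the F test 8. Without the 9 arrays of high Gapdh ratio, MSH called 4 (5.09%), PM-HD 5 (4.49%), zinc sulfate against MSH 14 (13.2%) and the F test 3. With each rat left out in turn, the count for MSH ran from 1 (without MSH replicate 3, 3.67%) to 5 (without saline replicate 2, 3.94%). For PM-HD it ran from 2 to 6 (without PM-HD replicate 2, 5.46%), and for PM-LD from 2 to 4 (3.37% to 5.88% over these fits). The PM-L count ran from 1 (without PM-L replicate 4, 4.38%) to 5 (without PM-L replicate 2, 5.08%). Zinc sulfate called from 2 (without saline replicate 4, 3.9%, or zinc sulfate replicate 1, 4.46%) to 9 (without zinc sulfate replicate 3, 8.29%). The F test count ran from 2 to 7, and that of zinc sulfate against MSH from 0 to 15 (without zinc sulfate replicate 3, 14.5%). The skeletal minus cardiac median ran from -0.024 to 0.26 for MSH, 0.01 to 0.24 for PM-HD, -0.17 to 0.06 for PM-LD, -0.20 to 0.11 for PM-L and -0.10 to 0.10 for zinc sulfate. No member passed the adjusted p in any of these fits. The remaining alternatives, offsets of 1 and 64, 24 arrays in every fit, the atrial mean as a covariate and the fit without arrays of high atrial mean, kept each count within 1.5 times.

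Correlations of deviations between same-numbered rats had medians of 0.04, 0.19, 0.04 and -0.09 for numbers 1 to 4 and were not above 0.1 for every pair of any number, so the numbers were not taken as pairs. With the replicate number as a block the counts were 3 for MSH (3.65% of all probe sets), 4 for PM-HD (3.86%), 3 for PM-LD (4.59%) and 3 for PM-L (4.53%). They were 4 for zinc sulfate (4.54%), 0 for zinc sulfate against MSH (6.95%) and 6 in the F test, and each count stayed within 1.5 times. The block ended the calls of Neb and Myh10 with zinc sulfate. Of the skeletal isoforms, 17 of 22 were under the median signal, where signal limits precision.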
